A study of Mus musculus with 6 samples.

Results

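The heat shock chaperones of the cytosol and mitochondria were taken as a list of 40 genes and found by symbol in the mRNA table of a mouse study of primary blast lung injury (PBLI). The 40 symbols matched 41 of 22564 protein-coding gene rows, because the table lists the symbol Hspa14 under 2 identifiers. In GENCODE vM21 the first of them, ENSMUSG00000051396, is named Gm45902 and the second, ENSMUSG00000079615, was not found, so neither row is certain to be Hspa14. All 41 rows were among the 14760 rows that reached 0.5 FPKM (fragments per kilobase of transcript, scaled to the size of the library) in at least 1 library, and each reached it in both groups. The list was divided into 7 classes: HSP70 and HSP110 (11 genes), HSP90 and its co-chaperones (6), HSP40 (8), small heat shock proteins (6), mitochondrial chaperones (4), BAG cofactors (3) and heat shock factors (2).

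PBLI mice were anesthetized, laid prone over an opening in a rubber plate and exposed in the chest to a single shock wave of 0.5 bar from a small shock tube. Control mice had the anesthesia alone. All 12 animals were male, of the strain C57BL/6 and 8 to 10 weeks old, and the right upper lobe of the lung was taken at 6 h. Lobes of 2 mice were pooled into each library of ribosomal RNA-depleted total RNA, giving 3 PBLI libraries (G3, G4 and G5) and 3 Control libraries (1, 2 and 3). Errors and p values therefore measure the spread between 3 pools per group.

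Heat shock proteins hold unfolded proteins and help them to fold. HSP70 works in cycles that HSP40 (DNAJ) proteins start and that HSP110 and BAG proteins drive on by exchanging nucleotide, HSP90 matures signaling proteins with the help of co-chaperones, small heat shock proteins keep unfolded proteins from aggregating, and the HSP60 and HSP10 ring folds proteins in the mitochondrial matrix. Heat, oxidants and other stresses that unfold proteins release heat shock factor 1 (Hsf1), which binds repeats of the element GAA and TTC in front of the inducible chaperone genes, whereas constitutive members such as Hspa8 are abundant in unstressed cells.

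FPKM does not keep the number of reads, so the depth behind the mRNA values is unknown. The circRNA table held 4018, 3568 and 4733 junction reads in PBLI G3, G4 and G5, against 2772, 2513 and 3379 in Control 1, 2 and 3. Defining markers of lung were present in all 6 libraries, with the 6 alveolar type 2 genes summing to between 11889 and 12645 FPKM in PBLI and between 8975 and 9940 FPKM in Control (1 of 6 rose). The 7 neutrophil markers summed to 2260, 1942 and 369 FPKM in PBLI G3, G4 and G5, against 280, 168 and 255 FPKM in Control 1, 2 and 3 (1 of 7 rose), and the 5 markers of proliferating cells to 11.9, 17.7 and 13.5 FPKM in PBLI, against 106, 22.6 and 19.0 FPKM in Control. The 4 mesothelial markers summed to 4.15, 2.13 and 7.25 FPKM in PBLI, against 0.0473, 0.213 and 0.413 FPKM in Control (1 of 3 tested rose). The 5 adipocyte markers summed to 94.3, 37.3 and 77.7 FPKM in PBLI, against 18.6, 25.3 and 46.1 FPKM in Control, and the 5 endothelial markers to 728, 775 and 685 FPKM in PBLI, against 833, 883 and 794 FPKM in Control, with no gene of either list past the threshold in limma. PBLI G5 thus stood apart in neutrophil markers and Control 1 in markers of proliferation, and the part of any of these cells in the chaperone levels was not tested. In bulk tissue, more cells of a type and more RNA per cell cannot be told apart.

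A total of 14 members rose in PBLI and 0 fell (limma on log2(FPKM + 0.5), Benjamini-Hochberg adjusted p under 0.05 over all 14760 genes). This was 34.1% of the members, whereas 1.15% of all genes tested rose and 0.928% fell. Before adjustment, 23 of the 41 rows had p under 0.05 upward and 2 downward in limma, against 1351 and 1478 of all 14760 genes. The 14 were Hspa1b, Hspa1a, Hspb1, Hsph1, Hspa8, Hsp90aa1, Hspd1, Stip1, Hspe1, Hspa9, Hsp90ab1, Chordc1, Ahsa1 and Dnaja2. Every PBLI library was above every Control library for 25 members (61.0%), against 13.3% of all genes, and below for 2 members (Hspb2 and Hspb6), against 14.4% of all genes. The median log2 fold change of the members was 0.44 and that of all genes tested was -0.02, with 34 estimates above 0 and 7 below. The list was chosen with earlier results of these data known, so these shares describe it and are not a test of it.

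The calls depended on single libraries. Without PBLI G3 0 members passed in limma, where 15 genes of the whole table (0.102%) still rose. At an unadjusted p under 0.05, 19 members were higher there, and 2338 of 14696 genes differed in either direction. Without Control 2 0 members passed in limma, where 5 genes of the whole table (0.0341%) still rose. At an unadjusted p under 0.05, 20 members were higher there, and 1934 of 14653 genes differed in either direction. In limma 3, 9 and 10 members passed without Control 1, Control 3 and PBLI G4, where 0.329%, 0.471% and 0.469% of all genes rose. Without the mean-variance trend 8 of the 14 passed, where 0.474% of all genes rose, and Ahsa1, Chordc1, Dnaja2, Hsp90ab1, Hspa9 and Hspe1 did not. Without PBLI G5 15 members rose, the 14 and Dnaja1, and 2.12% of all genes rose, against 1.15% with all 6 libraries. In each of these fits at least 32 of the 41 estimates were above 0 and the members' median was between 0.36 and 0.51.

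**Figure D1:**
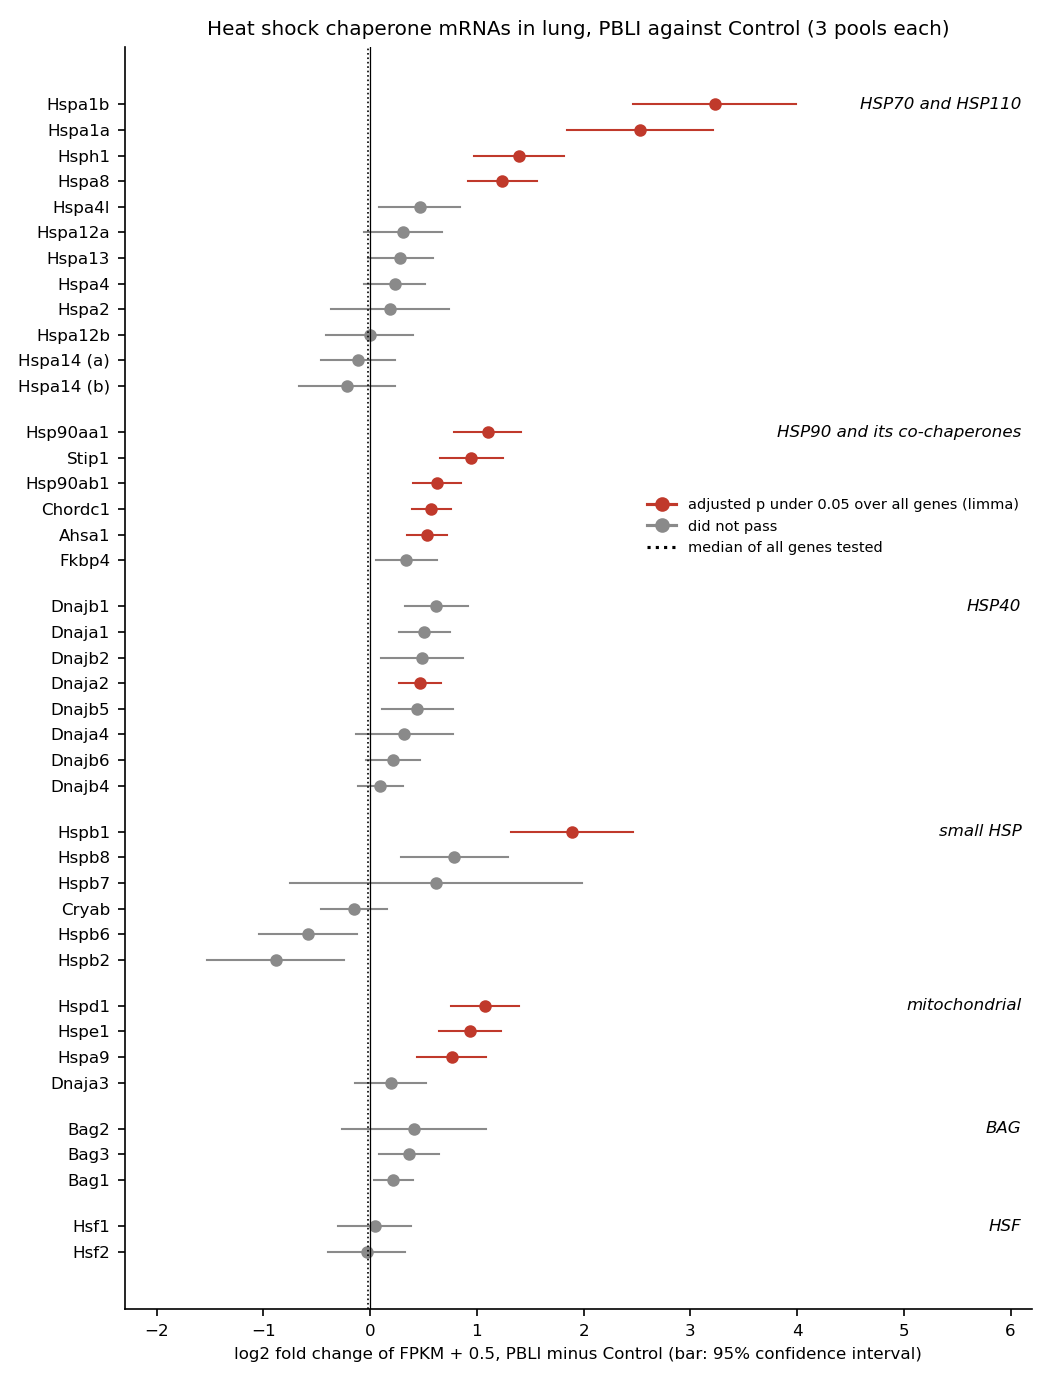
Log2 fold change of FPKM + 0.5 in PBLI over Control (x axis) for the 41 rows, ordered by class, with 95% confidence intervals from limma and 3 pools per group. Red marks an adjusted p under 0.05 over all genes, the dotted line is the median of all genes tested, and Hspa14 (a) and (b) are the 2 rows that the table lists under that symbol. The 14 red members lie between 0.47 and 3.23, the lowest estimate is that of Hspb2, and both heat shock factors lie near 0.

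Promoter windows of 32 of the 40 members, from 250 bases before to 50 bases after a start site, were available from RefSeq on GRCm38.p6, and Cryab, Hsf1, Hsp90aa1, Hsp90ab1, Hspa13, Hspa8, Hspa9 and Hspb2 had none. A heat shock element of 3 units in perfect form (GAANNTTCNNGAA or its reverse complement TTCNNGAANNTTC, so both strands) stood in the window of 5 of the 32 genes (15.6%), whereas 179 of 27025 genes with a promoter window held it (0.662%). They were Chordc1, Hsph1, Dnajb6 and the neighbors Hspd1 and Hspe1, which share 1 stretch of DNA and are read on opposite strands, and all but Dnajb6 were among the members that rose. The stretches are shown because they carry the complete element, with its letters in capitals, in the direction of each gene (overlapping matches run together):

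Chordc1, chr9:18292262-18292287, plus strand: gGAACGTTCGGGAAAATTCCTGAAgc

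Hsph1, chr5:149636281-149636306, minus strand: tgcagaTTCTGGAAAGTTCtcctcag

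Hspd1, chr1:55088055-55088080, minus strand: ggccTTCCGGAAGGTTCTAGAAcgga

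Hspe1, chr1:55088055-55088080, plus strand: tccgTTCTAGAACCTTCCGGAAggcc

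Dnajb6, chr5:29735846-29735871, plus strand: ctccgaGAATCTTCCGGAAcgctaga

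Counted from a start site at 0, the capitals begin at -4 in Chordc1, at -144 in Hspd1 and at -89 in Hspe1. Hspd1 has another start site, from which this stretch lies behind the start and outside the window, and that window held no match. Dnajb6 and Hsph1 also have more than 1 start site. The capitals begin at -46 or -127 in Dnajb6 and at 15 or 36 in Hsph1, behind the start. The shorter form of 2 units (GAANNTTC or TTCNNGAA, each its own reverse complement and also a part of the longer form) stood in 15 of 32 members (46.9%), against 17.0% of all 27025 genes. Of the 10 members with a window that rose, 7 held this shorter form (70.0%), and of the 22 that did not pass, 8 did (36.4%). Ahsa1, Stip1 and Dnaja2 rose and held neither form. Hspa1b, Hspa1a and Hspb1, the members with the largest changes, held only the shorter form. The 250 bases in front of their start sites are shown with it in capitals:

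Hspa1b, chr17:34959239-34959488, minus strand: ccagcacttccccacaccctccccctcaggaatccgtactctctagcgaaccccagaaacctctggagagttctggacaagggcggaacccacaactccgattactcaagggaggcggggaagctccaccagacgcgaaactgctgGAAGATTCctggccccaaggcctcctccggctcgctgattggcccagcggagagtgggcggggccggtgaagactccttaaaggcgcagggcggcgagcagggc

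Hspa1a, chr17:34972157-34972406, minus strand: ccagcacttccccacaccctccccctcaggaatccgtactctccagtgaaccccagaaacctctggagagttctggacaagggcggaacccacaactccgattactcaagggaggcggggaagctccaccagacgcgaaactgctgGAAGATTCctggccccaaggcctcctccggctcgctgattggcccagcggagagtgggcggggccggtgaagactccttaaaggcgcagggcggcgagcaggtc

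Hspb1, chr5:135887669-135887918, plus strand: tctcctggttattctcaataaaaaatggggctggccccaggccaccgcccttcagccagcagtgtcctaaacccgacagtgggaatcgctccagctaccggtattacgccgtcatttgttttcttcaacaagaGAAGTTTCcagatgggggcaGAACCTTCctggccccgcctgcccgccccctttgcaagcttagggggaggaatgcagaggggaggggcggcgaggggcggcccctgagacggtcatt

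The Hspa1a and Hspa1b stretches were identical at 247 of 250 bases, and the capitals begin at -104 in both. In Hspb1 they begin at -117 and at -97. A match of letters is a description of the window, and binding was not measured.

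The inducible HSP70 genes had the largest changes of all members. Hspa1b, a stress-inducible cytosolic HSP70, had 17.5, 13.0 and 28.0 FPKM in PBLI G3, G4 and G5, against 1.05, 1.37 and 2.43 FPKM in Control 1, 2 and 3, a log2 fold change of 3.23 (SE 0.33, adjusted p = 0.00876). Its neighbor and near copy Hspa1a had 7.76, 5.84 and 13.2 FPKM in PBLI, against 0.817, 1.27 and 1.09 FPKM in Control, a log2 fold change of 2.53 (SE 0.29, adjusted p = 0.0131). The lowest PBLI library was above the highest Control library for both genes, and the fold changes, taken with 0.5 FPKM added, understate those of such low levels, since the FPKM means differed 12.1-fold and 8.42-fold. Of the 150-base windows of the Hspa1a transcript, 38.1% also occurred in that of Hspa1b, so reads could be divided between both genes in more than 1 way. Their summed level avoids this, and was 25.3, 18.9 and 41.1 FPKM in PBLI, against 1.87, 2.64 and 3.52 FPKM in Control (log2 fold change 3.15, SE 0.30, adjusted p = 0.00766 in limma). Hspa1b stood at 2.26, 2.23 and 2.12 times the FPKM of Hspa1a in PBLI and at 1.29, 1.08 and 2.22 times in Control, so the ratio of the copies overlapped between the groups.

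Hspa8, the constitutive cytosolic HSP70 (HSC70), was the most abundant member and had the largest gain in FPKM. It stood at 604, 512 and 645 FPKM in PBLI G3, G4 and G5, against 257, 211 and 280 FPKM in Control 1, 2 and 3, and rose with a log2 fold change of 1.24 (SE 0.14, adjusted p = 0.0109). Its gain of 337 FPKM between group means was 33.2% of the gain of all members together, whereas Hspa1a and Hspa1b gained 25.8 FPKM together. Hsph1 (HSP110), a nucleotide exchange factor of HSP70, had 35.9, 28.9 and 28.1 FPKM in PBLI, against 9.38, 10.7 and 14.8 FPKM in Control (log2 fold change 1.39, SE 0.18, adjusted p = 0.0163). Neither gene overlapped between the groups. The testis-rich HSP110 relative Hspa4l had 52.2, 38.4 and 36.0 FPKM in PBLI, against 25.8, 31.4 and 33.4 FPKM in Control, apart but without passing (log2 fold change 0.46, adjusted p = 0.187). For Hspa4, the other HSP110 relative, the levels of 72.2, 68.5 and 78.9 FPKM in PBLI and of 73.7, 55.8 and 58.6 FPKM in Control overlapped (log2 fold change 0.23, adjusted p = 0.343). The remaining rows of the class, Hspa2, Hspa12a, Hspa12b, Hspa13 and both of Hspa14, had log2 fold changes between -0.22 and 0.31 and none passed. In all, 4 of 12 rows rose, with a median of 0.30.

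**Figure D2:**
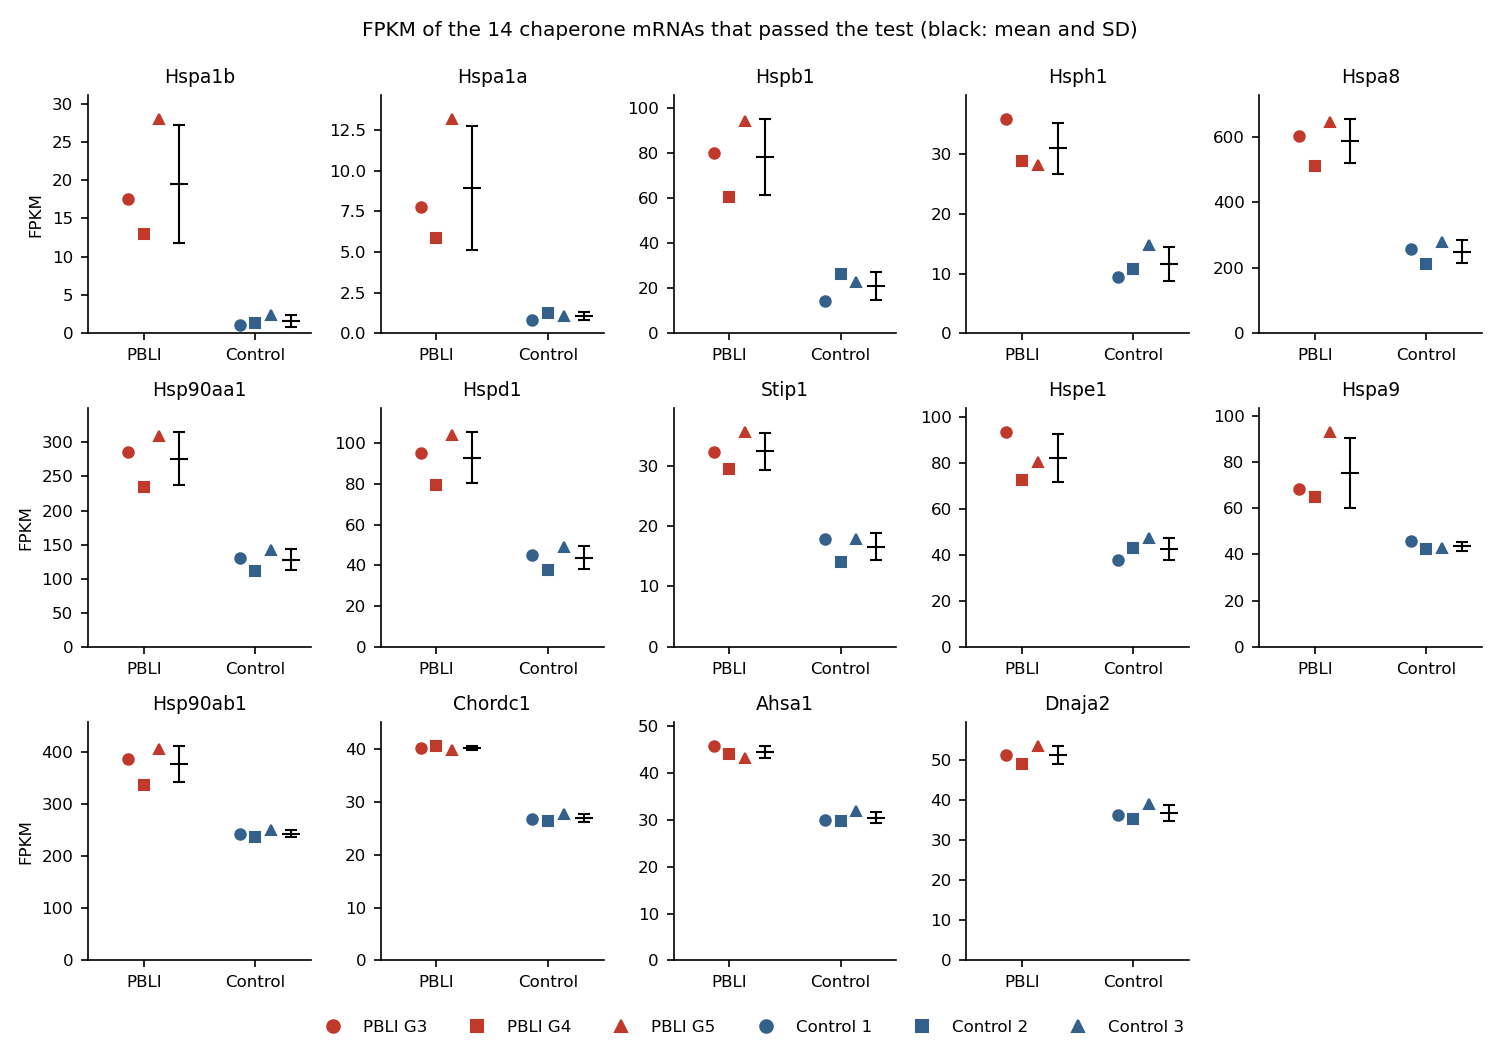
FPKM (y axis, from 0) of the 14 members that rose, in each PBLI library (red, left) and Control library (blue, right), with the mean and SD of 3 pools in black. In each panel the lowest PBLI point lies above the highest Control point, with the widest ratio in Hspa1b and the narrowest spread within groups in Chordc1 and Ahsa1.

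Of HSP90 and its co-chaperones 5 of 6 rose, with a median log2 fold change of 0.60 and all 6 had groups apart. Hsp90aa1, the inducible cytosolic HSP90, had 286, 234 and 309 FPKM in PBLI G3, G4 and G5, against 131, 111 and 142 FPKM in Control 1, 2 and 3 (log2 fold change 1.10, adjusted p = 0.0156). Hsp90ab1, the constitutive form and the most abundant of the class, had 386, 337 and 405 FPKM in PBLI, against 242, 236 and 250 FPKM in Control (0.63, adjusted p = 0.0277). After Hspa8 these were the next largest gains, 148 and 133 FPKM. Stip1 (HOP), the adaptor that links HSP70 to HSP90, had 32.3, 29.4 and 35.5 FPKM in PBLI, against 17.8, 14.1 and 17.9 FPKM in Control (0.95, adjusted p = 0.0175). The level of Ahsa1, which activates the HSP90 ATPase, was 45.8, 44.1 and 43.3 FPKM in PBLI, against 30.0, 29.7 and 31.8 FPKM in Control (0.54, adjusted p = 0.0235).

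Chordc1, an HSP90 cofactor with zinc-binding CHORD domains, had 40.2, 40.6 and 39.8 FPKM in PBLI G3, G4 and G5, against 26.8, 26.3 and 27.7 FPKM in Control 1, 2 and 3 (log2 fold change 0.57, SE 0.08, adjusted p = 0.0184). It had the smallest SE of all members, its mean of 40.2 ± 0.407 FPKM in PBLI and 26.9 ± 0.726 FPKM in Control (SD, n = 3 each) being 1.49-fold apart. Even so, Chordc1 passed in only 1 of 6 fits with a library left out, and did not pass without the mean-variance trend (adjusted p = 0.058 in limma). Fkbp4 (FKBP52), an immunophilin that binds HSP90 in steroid receptor complexes, had 48.5, 50.6 and 49.5 FPKM in PBLI, against 36.6, 34.7 and 47.0 FPKM in Control, and did not pass (0.34, adjusted p = 0.199). Control 3 came close to the PBLI libraries.

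Of the 4 mitochondrial chaperones 3 rose, with a median log2 fold change of 0.85. Hspd1 (HSP60), which forms the folding chamber of the matrix, had 95.4, 79.5 and 104 FPKM in PBLI G3, G4 and G5, against 45.0, 37.6 and 48.9 FPKM in Control 1, 2 and 3 (1.07, adjusted p = 0.0162). Hspe1 (HSP10), the lid of that chamber, had 93.2, 72.7 and 80.4 FPKM in PBLI, against 37.7, 43.1 and 47.3 FPKM in Control (0.93, adjusted p = 0.0173). These divergent neighbors on chromosome 1 overlap by 112 bp in the annotation, and 5 and 6 genes of the reference are named as pseudogenes of Hspd1 and Hspe1, whose share of the reads was not tested. Hspa9 (mortalin), the HSP70 of the matrix and of protein import, had 68.2, 65.0 and 92.8 FPKM in PBLI, against 45.8, 42.3 and 42.7 FPKM in Control (0.76, adjusted p = 0.0411). The matrix HSP40 Dnaja3 (TID1) overlapped between the groups, at 13.0, 12.7 and 17.0 FPKM in PBLI and 11.2, 12.4 and 13.5 FPKM in Control (0.19, adjusted p = 0.504).

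Of the 8 HSP40 genes Dnaja2 alone passed, and the median was 0.46 with all 8 estimates above 0. Dnaja2, a type I co-chaperone of HSC70, had 51.1, 48.8 and 53.4 FPKM in PBLI G3, G4 and G5, against 36.2, 35.1 and 39.0 FPKM in Control 1, 2 and 3 (0.47, adjusted p = 0.0406). Dnaja1, its relative and the most abundant HSP40 of the list, had 109, 96.9 and 93.4 FPKM in PBLI, against 66.5, 66.3 and 77.6 FPKM in Control (0.51, adjusted p = 0.0559 in limma). The main inducible HSP40, Dnajb1, had 18.0, 16.7 and 16.7 FPKM in PBLI, against 9.90, 10.3 and 12.9 FPKM in Control (0.62, adjusted p = 0.0603 in limma). The groups of all 3 genes were apart. With library weights, where 17 members and 4.36% of all genes rose, Dnaja1 and Dnajb1 passed in limma too. Dnaja2 did not pass in limma with quantile normalization (adjusted p = 0.0535) or without the trend (adjusted p = 0.103). It passed in 1 of 6 fits with a library left out, as did Ahsa1, Chordc1 and Hspa9. Dnajb2, which sorts clients to the proteasome, had 12.9, 9.84 and 14.0 FPKM in PBLI, against 7.42, 8.93 and 9.32 FPKM in Control (0.49, adjusted p = 0.177). Dnajb5 had 6.90, 7.68 and 7.89 FPKM in PBLI, against 4.79, 5.39 and 6.00 FPKM in Control (0.44, adjusted p = 0.162). For Dnajb6, an anti-aggregation HSP40, the levels of 74.0, 70.3 and 62.8 FPKM in PBLI and of 53.4, 58.5 and 66.2 FPKM in Control overlapped (0.22, adjusted p = 0.318). Dnaja4 and Dnajb4 overlapped too, at log2 fold changes of 0.32 and 0.10.

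The small heat shock proteins were divided, with 3 estimates above 0 and 3 below, from -0.88 to 1.89, and a median of 0.23. Hspb1 (HSP27 in human, HSP25 in mouse), which holds unfolded proteins and binds actin, rose with the third largest change of the list, at 80.0, 60.4 and 94.1 FPKM in PBLI G3, G4 and G5, against 14.2, 26.2 and 22.8 FPKM in Control 1, 2 and 3 (1.89, SE 0.24, adjusted p = 0.0163). Hspb8, which acts with Bag3 in chaperone-assisted autophagy, had 22.8, 19.5 and 34.9 FPKM in PBLI, against 12.1, 14.8 and 16.1 FPKM in Control, apart but without passing (0.79, adjusted p = 0.120). The pair showed a spread within PBLI in which G5 was highest and G4 lowest. Hspb6 (HSP20) and Hspb2, both known from muscle, had all PBLI values below all Control values without passing. Hspb6 had 3.19, 2.29 and 3.18 FPKM in PBLI, against 3.75, 5.32 and 4.64 FPKM in Control (-0.58, adjusted p = 0.178), and Hspb2 had 0.754, 1.34 and 0.933 FPKM in PBLI, against 1.47, 2.95 and 2.56 FPKM in Control (-0.88, adjusted p = 0.155). Hspb2 had the lowest level of the class. Cryab (alpha-B crystallin), which had the highest level of the class in Control but stood below Hspb1 in PBLI, overlapped at 44.5, 44.1 and 61.0 FPKM in PBLI and 52.8, 55.4 and 56.3 FPKM in Control (-0.15, adjusted p = 0.570). Hspb7, a heart and muscle member, had 2.87, 1.43 and 11.0 FPKM in PBLI, against 1.85, 2.02 and 2.97 FPKM in Control (0.62, adjusted p = 0.595), and without G5 its log2 fold change was -0.10.

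Markers of muscle were measured beside these genes. The 8 cardiac markers summed to 218, 94.4 and 212 FPKM in PBLI G3, G4 and G5, against 133, 258 and 225 FPKM in Control 1, 2 and 3, and the 6 smooth muscle markers to 166, 134 and 222 FPKM in PBLI, against 159, 229 and 250 FPKM in Control, and no gene of either list passed in limma. Their part in the levels of Hspb2, Hspb6, Hspb7 and Cryab was not tested. Hspb2 and Cryab are divergent genes on chromosome 9 whose annotated ends overlap by 1030 bp, and the sources used here do not say whether counting used strand, so reads of the overlap may be divided between them.

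**Figure D3:**
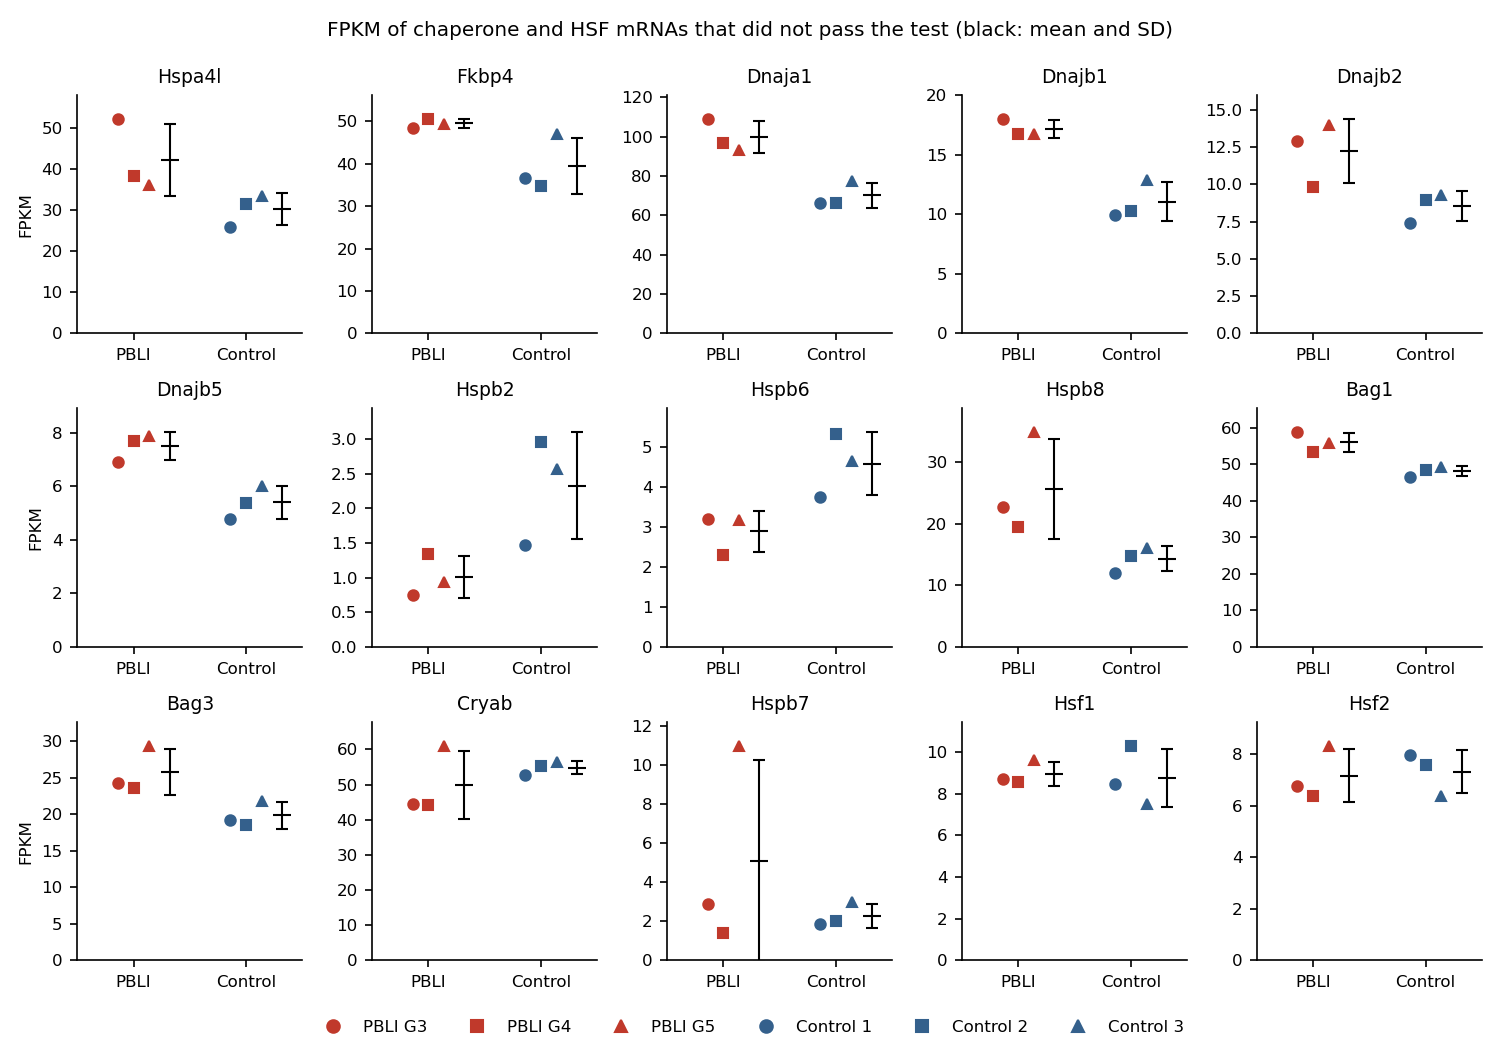
FPKM (y axis, from 0) in each PBLI library (red, left) and Control library (blue, right) of the 11 members with an unadjusted p under 0.05 that did not pass after adjustment, and of Cryab, Hspb7, Hsf1 and Hsf2, with the mean and SD of 3 pools in black (the lower bar of Hspb7 is cut at 0). The groups are apart for the first 11, upward in all but Hspb2 and Hspb6, and overlap for the last 4.

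Neither the BAG cofactors nor the heat shock factors passed in limma, and 2 of these 5 genes, both BAG, had an unadjusted p under 0.05. Bag3, the co-chaperone of Hspb8 that is itself a heat shock gene, had 24.3, 23.6 and 29.4 FPKM in PBLI G3, G4 and G5, against 19.2, 18.5 and 21.9 FPKM in Control 1, 2 and 3 (log2 fold change 0.36, adjusted p = 0.171). Bag1, a nucleotide exchange factor linked to the proteasome, had 58.8, 53.5 and 56.0 FPKM in PBLI, against 46.6, 48.4 and 49.4 FPKM in Control (0.22, adjusted p = 0.203). Both had groups apart, whereas Bag2 overlapped (0.41, adjusted p = 0.466). The mRNA of Hsf1, the main factor of the heat shock response, differed little, at 8.72, 8.55 and 9.61 FPKM in PBLI and 8.45, 10.3 and 7.52 FPKM in Control (0.04, adjusted p = 0.904). Hsf2, a related factor, had 6.79, 6.37 and 8.33 FPKM in PBLI, against 7.98, 7.60 and 6.40 FPKM in Control (-0.03, adjusted p = 0.929). Hsf1 is controlled mainly after translation, and neither protein nor phosphorylation was measured.

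Summed over all 41 rows, chaperone mRNA was 2554, 2226 and 2696 FPKM in PBLI G3, G4 and G5, against 1461, 1388 and 1582 FPKM in Control 1, 2 and 3, or 2492 ± 241 FPKM in PBLI and 1477 ± 97.9 FPKM in Control (SD, n = 3 each). The classes differed in their ratio of means. HSP70 and HSP110 stood at 830 ± 86.6 FPKM in PBLI and 422 ± 40.8 FPKM in Control (1.97-fold), mitochondrial chaperones at 265 ± 32.3 FPKM in PBLI and 143 ± 8.82 FPKM in Control (1.86-fold), and HSP90 with its co-chaperones at 819 ± 75.3 FPKM in PBLI and 485 ± 32.7 FPKM in Control (1.69-fold). Small heat shock proteins were at 163 ± 38.8 FPKM in PBLI and 99.4 ± 11.5 FPKM in Control (1.64-fold), HSP40 at 314 ± 19.2 FPKM in PBLI and 242 ± 19.5 FPKM in Control (1.30-fold), BAG at 86.2 ± 5.75 FPKM in PBLI and 71.2 ± 3.91 FPKM in Control (1.21-fold) and the heat shock factors at 16.1 ± 1.60 FPKM in PBLI and 16.1 ± 2.01 FPKM in Control (1.00-fold). These sums are led by a few abundant genes, and no test was made of a class. By share of the list, Hspa8 made up 23.5% of the summed FPKM in PBLI and 16.8% in Control, Hsp90aa1 11.1% in PBLI and 8.67% in Control, and Hsp90ab1 15.1% in PBLI and 16.5% in Control.

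**Figure D4:**
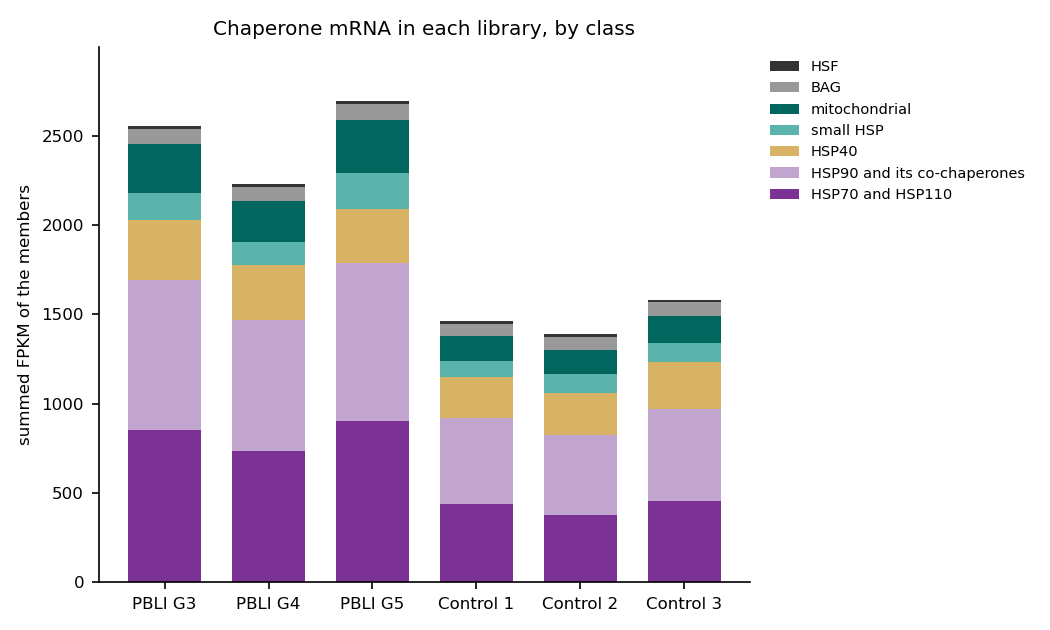
Summed FPKM of the members (y axis, from 0) in each of the 3 PBLI libraries (left) and 3 Control libraries (right), stacked by class. The PBLI bars reach 2226 to 2696 FPKM and the Control bars 1388 to 1582 FPKM, and most of the height in both groups is HSP70 and HSP90 with their partners.

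The order of the libraries was counted for the 14 members that rose and for no other genes, so it is not known to be particular to them. PBLI G5 had the highest level of its group for 10 of the 14, and PBLI G4 the lowest for 11 of them. G5 was the PBLI library with the lowest summed neutrophil markers, 369 FPKM, and the 14 calls were also made without it. The part of neutrophils in the chaperone levels was not tested. Among the Control libraries, Control 3 was highest for 11 of the 14 and Control 2 lowest for 9.

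Ratios of 2 members within a library do not depend on how libraries were scaled, and 9 pairs were compared by an exact two-sided permutation test, for which 3 against 3 libraries allow no p below 0.1. The pairs too were chosen with earlier results of these data known. In 4 pairs the ratios of all PBLI libraries lay above those of all Control libraries (exact p = 0.1 each, 0.225 after Benjamini-Hochberg adjustment over the 9). The sum of Hspa1a and Hspa1b was 0.0419, 0.0369 and 0.0638 of the FPKM of Hspa8 in PBLI, against 0.00728, 0.0125 and 0.0126 in Control. Hsp90aa1 was at 0.740, 0.694 and 0.764 of Hsp90ab1 in PBLI, against 0.543, 0.473 and 0.569 in Control. The inducible genes thus stood higher beside their constitutive relatives in each PBLI library. Hsph1 was at 0.496, 0.422 and 0.356 of Hspa4 in PBLI, against 0.127, 0.191 and 0.252 in Control, and Dnajb1 at 0.244, 0.238 and 0.266 of Dnajb6 in PBLI, against 0.185, 0.177 and 0.194 in Control.

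The other 5 ratios overlapped. Hspd1 was at 1.02, 1.09 and 1.29 of Hspe1 in PBLI and 1.20, 0.872 and 1.03 in Control (exact p = 0.5), and Dnaja1 at 2.14, 1.99 and 1.75 of Dnaja2 in PBLI and 1.84, 1.89 and 1.99 in Control (exact p = 0.8). Bag3 over Bag1 was 0.413, 0.441 and 0.525 in PBLI and 0.412, 0.382 and 0.442 in Control (exact p = 0.4), and Hsf1 over Hsf2 was 1.28, 1.34 and 1.15 in PBLI and 1.06, 1.35 and 1.17 in Control (exact p = 0.7). Partners that share a promoter region or a complex were among these. Cryab over Hspb2 was 59.1, 33.0 and 65.4 in PBLI and 35.9, 18.8 and 22.0 in Control (exact p = 0.2).

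**Figure D5:**
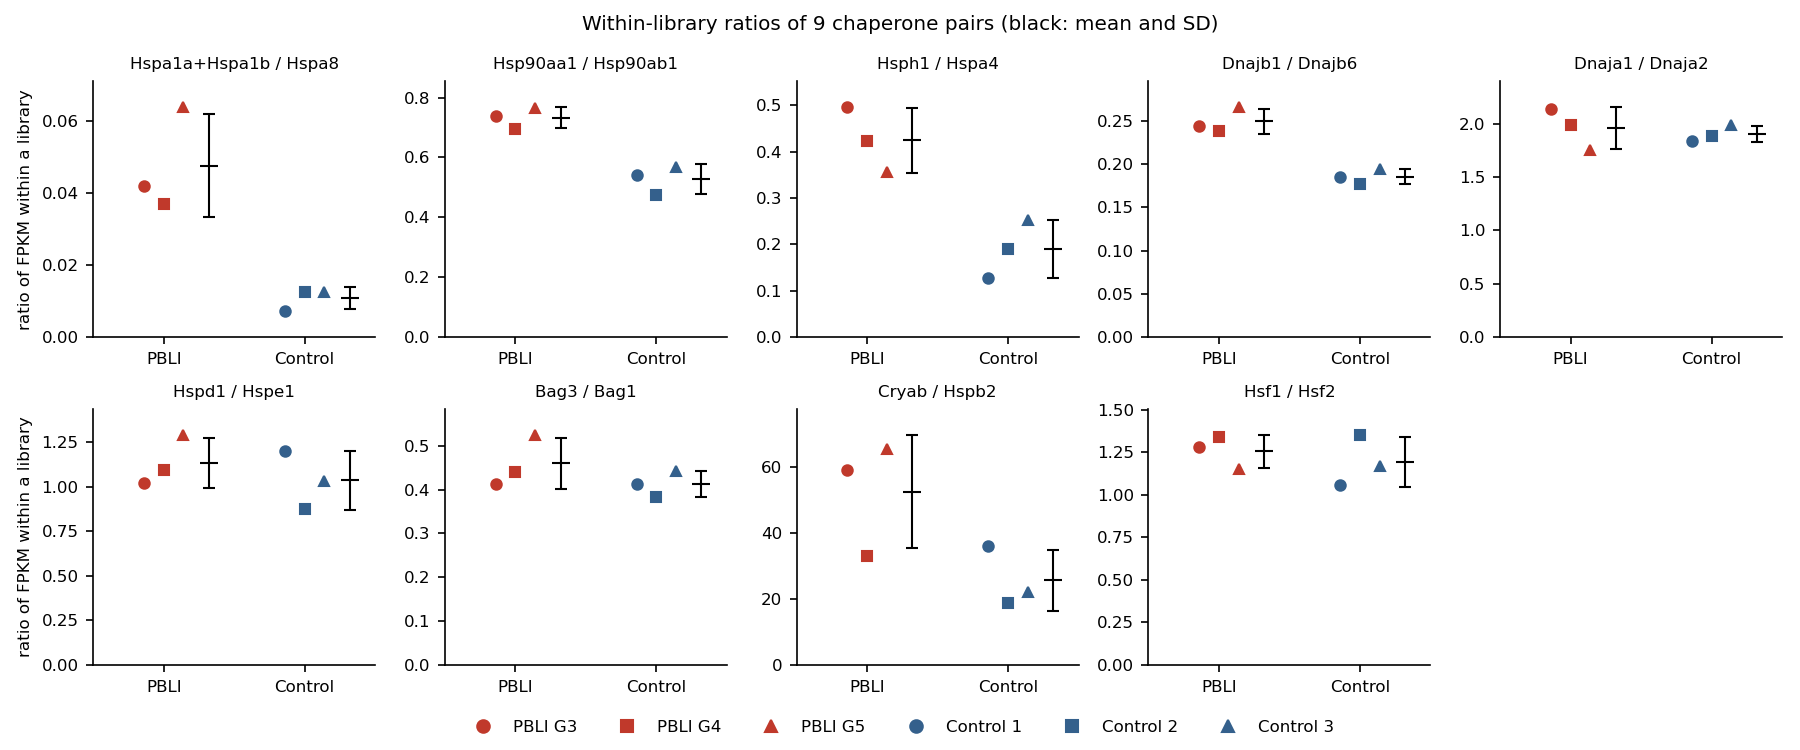
Ratio of FPKM within a library (y axis, from 0) for the 9 pairs, in each PBLI library (red, left) and Control library (blue, right), with the mean and SD of 3 pools in black. The first 4 panels show PBLI ratios that all lie above the Control ratios, and the points of the other 5 panels overlap.

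Other chaperone genes, in 8 lists with 85 genes tested, had 6 that rose and 0 that fell in limma, with a median log2 fold change of 0.16. Of all genes tested 1.15% rose and 0.928% fell, with a median of -0.02. Among those that rose was Hspa5 (BiP), the HSP70 of the endoplasmic reticulum, at 319, 311 and 368 FPKM in PBLI, against 148, 131 and 150 FPKM in Control (1.21, adjusted p = 0.00473 in limma). Its exchange factor Hyou1, the BiP-binding HSP40 Dnajb9, the HSP90 and ubiquitin ligase partner Cacybp and the autophagy receptor Sqstm1 rose too. The largest change of the 6 was that of Sqstm1, at 294, 245 and 350 FPKM in PBLI, against 85.4, 97.0 and 106 FPKM in Control (1.61, adjusted p = 0.00576). The 2 smallest p of the cytosolic chaperonin TRiC and prefoldin belonged to Pfdn2 (0.51, adjusted p = 0.0977) and Cct4 (0.31, adjusted p = 0.134). None of the 13 TRiC and prefoldin genes passed in limma, and their median was 0.40. Before adjustment 9 of them had p under 0.05 upward in limma, against 1351 of all 14760 genes. In 9 of the 13 all PBLI libraries were above all Control libraries, against 13.3% of all genes. Of the 7 other mitochondrial folding genes none passed in limma (4 had an unadjusted p under 0.05). Grpel2, an exchange factor of Hspa9, had a log2 fold change of 0.44 and an adjusted p of 0.113 in limma.

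CircRNAs, circles closed by back-splicing and counted by junction reads, were listed for 6 member genes. The 10 circRNAs had 30 junction reads in PBLI, against 5 in Control, whereas all 3696 circRNAs had 12319 in PBLI, against 8664 in Control. None of the 10 passed in edgeR (1 had an unadjusted p under 0.05), and 0.00% of all 3696 did (48 had an unadjusted p under 0.05 in edgeR and 12 in DESeq2). The circRNA of Chordc1 at chr9:18295300-18302183 had no read in PBLI G3, 2 in G4 and 9 in G5, against 0 in each Control library (adjusted p = 0.586 in edgeR), so that 9 of its 11 reads came from 1 library. Counts were low throughout, and 7 of the 10 had 2 or 3 reads over all 6 libraries together.

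Of the lncRNA transcripts that the table ties to a member, 11 of 26 reached 0.5 FPKM in a library, and none passed in limma, as against 0.0295% of 6772 transcripts. Before adjustment 1 of the 11 had p under 0.05 in limma, and 626 of all 6772 transcripts did, a similar share. The 1 was uc007fcl.1, which overlaps exons of Hsf2 on the same strand. It stood at 1.81, 5.85 and 3.12 FPKM in PBLI, against 8.64, 8.76 and 7.69 FPKM in Control (-1.24, adjusted p = 0.416). Its reads and those of Hsf2 itself may be shared.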

How the data were processed

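Lung RNA of 6 pools, 3 PBLI and 3 Control, was sequenced as paired reads of 150 bases, and per the labels base calling used CASAVA (1.8). For mRNAs the authors trimmed reads with cutadapt, aligned them to mm10 with hisat2 and ran cuffdiff with the Ensembl annotation. The deposited values used here are FPKM per protein-coding gene and FPKM per lncRNA transcript. They were not scaled further, since median ratios between libraries were 0.987 to 1.009. The deposited circRNA counts are junction reads that the authors obtained with STAR (2.5.1b) and DCC.

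FPKM was tested as log2(FPKM + 0.5) with limma (3.58.1, mean-variance trend) over rows that reached 0.5 FPKM in 1 library or more, with Benjamini-Hochberg adjustment over all of them and a threshold of 0.05. CircRNA counts were tested with edgeR's quasi-likelihood test (4.0.16, TMM), with DESeq2 (1.42.0) as an alternative. Software was R (4.3.3) and Python (3.11.15) with scipy (1.17.1) for permutation tests and matplotlib (3.10.9) for plots. The fits were tested on simulated data. Other pseudocounts, filters, scalings, library weights and leaving out each library were tried as well.

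The members, classes, pairs and lists were chosen with earlier results of these data known. Values per library are given for members at an adjusted or unadjusted p under 0.05, the most abundant of each class and both genes of each pair, and other members by range. Hspb7 and Dnaja3 were added to these after their values were seen. Of the other lists, genes at an adjusted p under 0.05 and the 2 with the smallest p could be named. PBLI columns carry G3, G4 and G5, which give the group but no sample number, so 1 measure per table was kept (FPKM for mRNAs, since the mRNA count columns hold scaled and not whole values), and 18 per-sample columns (scaled mRNA counts, lncRNA counts and log-scaled circRNA counts) were not used. Gene coordinates are from GENCODE vM21 on GRCm38, and promoter windows from RefSeq on GRCm38.p6. The values of 1 gene of the other lists are not reported here.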

Additional observations from a re-analysis of the deposited data

How the results depend on the processing

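No paired analysis was possible because the columns of the PBLI libraries carry no replicate number, and tests on the mRNA count columns were not run, since these hold scaled values and not whole raw counts. The 14 members that rose kept their direction under each alternative run. Of the 41 rows, 14 rose in limma, 8 without the mean-variance trend, 12 with no filter on low values, and between 0 and 15 with 1 library left out. None fell, and 1 did with library weights (Hspb2, log2 fold change -1.05, adjusted p = 0.0449 in limma). Over all genes tested, 170 were called higher and 137 lower. This was 106 and 68 with no filter, 70 and 59 without the trend, and 644 and 529 with library weights. With 1 library left out, 5 to 311 were higher and 0 to 188 lower, the fewest without Control 2 and the most without PBLI G5. The causes were not tested. Some estimates changed sign, none past the threshold. That of Hsf1 was -0.05 with library weights. With 1 library left out, log2 fold changes ran between -0.06 and 0.16 for Hsf1, -0.14 and 0.04 for Hsf2, -0.19 and 0.15 for Hspa12b and -0.10 and 1.18 for Hspb7. With 3 pools per group, calls of small changes are limited by the spread between pools, and those of circRNAs by their few junction reads.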
